A study of Homo sapiens with 12 samples.

Results

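The 6 genes examined here belong to tryptophan metabolism: IDO1, TDO2, AFMID, KMO and KYNU, which act on the kynurenine pathway, and WARS1, the cytosolic tryptophanyl-tRNA synthetase. They were chosen by name, as 6 of the 61552 genes in the count tables. RNA-seq had been run on established human lines of triple-negative breast cancer. HCC38 cells were kept in RPMI-1640 medium, whereas MDA-MB-231 cells had low-glucose DMEM, and effects of line and of medium cannot be told apart. Both are labelled wild type, and each line was studied untreated and after 48 h with the type I interferon interferon-β at 400 IU/mL. Each of the 4 groups of line and treatment held 3 libraries, called biological replicates without a statement that they were separate cultures. A p-value here thus reflects only how these libraries varied, and that variation may be technical.

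Tryptophan that is not built into protein is mostly broken down along the kynurenine pathway. IDO1 or TDO2 opens its ring, AFMID (formamidase) releases kynurenine, KMO hydroxylates kynurenine, KYNU (kynureninase) cleaves kynurenine and 3-hydroxykynurenine, and HAAO and QPRT carry the products on towards NAD. IDO1 is known as an interferon-inducible enzyme by which tumour and myeloid cells deplete tryptophan around T cells, and TDO2 is best known from liver. WARS1 loads tryptophan onto its tRNA and is the synthetase gene best known for induction by interferons, above all interferon-γ.

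Interferon response elements near the start of a gene are the sequences through which STAT and IRF factors are known to act. Promoter windows from RefSeq (GRCh38.p14; 250 bases before to 50 after a transcription start) were found for 5 of the 6 genes, and WARS1 had 2 starts 980 bases apart. They were searched on both strands for the core of the interferon-stimulated response element, GAAA, any 2 bases and GAAA again (TTTC, 2 bases and TTTC on the other strand). They were also searched for the gamma-activated sequence, TTC, any 3 bases and GAA, which reads the same on both strands. Of 35116 such windows in the table, 3.57% held the first, 7.66% the second and 0.439% both. IDO1 had no window in the table, so its promoter was not searched. The sequences below are shown because they are the matches before a start among the 5 genes with a window. Each is 30 bases long on the strand of the gene, with the match in capitals.
WARS1, response element core, 55 to 46 bases before the downstream start: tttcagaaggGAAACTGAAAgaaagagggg
WARS1, gamma-activated sequence, 142 to 134 bases before the downstream start: gctcaagtgtTTCTGAGAAtctgggtgatt
KYNU, gamma-activated sequence, 34 to 26 bases before the start: gtctgagcagTTCTTTGAAtttctcaccct

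The WARS1 sequences lie at chr14:100375383-100375412 and chr14:100375470-100375499 on the minus strand, and that of KYNU at chr2:142877620-142877649 on the plus strand. KYNU held a further gamma-activated sequence at bases 6 to 14 after its start. The upstream WARS1 window and the windows of TDO2, KMO and AFMID held neither motif. A match describes letters in a window and is no evidence of binding, and a window without one says nothing about the factor.

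Depth and identity were checked before the genes were compared. Total counts per library ran from 26660038 to 43588773, and 18121 genes passed the filter on low counts. Of 8 reference interferon-stimulated genes, 6 rose in HCC38 and 8 in MDA-MB-231. The oestrogen receptor gene ESR1 had at most 3 counts in a library and the progesterone receptor gene PGR at most 1. The HER2 transcript ERBB2 was present, at 163 ± 6.94 CPM (counts scaled to a common library size; SD, n = 3) in untreated HCC38 and 63.3 ± 0.903 in untreated MDA-MB-231. The MDA-MB-231 libraries fell into 2 sets by the numbers in their deposited names. Set 1 was untreated replicates 1 and 2 and treated replicate 1, and set 2 was untreated replicate 3 and treated replicates 2 and 3. Chi-square per degree of freedom reached 46.5 to 68.1 between libraries of one group in different sets, against 4.31 to 15.4 for other pairs. For the 6 genes, values within the sets are given where the sets changed a call. Each set held only 1 library in 1 of its 2 treatments, so a response within a set rests on 1 library on that side. Its SE and p-value take their spread from the groups with more libraries.

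The kynurenine pathway was transcribed differently in the 2 lines. HCC38 held transcripts of IDO1, AFMID, KMO, HAAO and QPRT with little KYNU, whereas MDA-MB-231 held AFMID and KYNU with no read of IDO1 and next to none of KMO. Without treatment, all 5 of the genes that passed the filter differed between the lines in edgeR's quasi-likelihood test at an adjusted p under 0.05, where 75.5% of all genes did. In interferon-β 4 of 5 did, against 74.9% of all genes, so these counts do not set the 6 genes apart from the rest of the transcriptome.

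**Figure D1:**
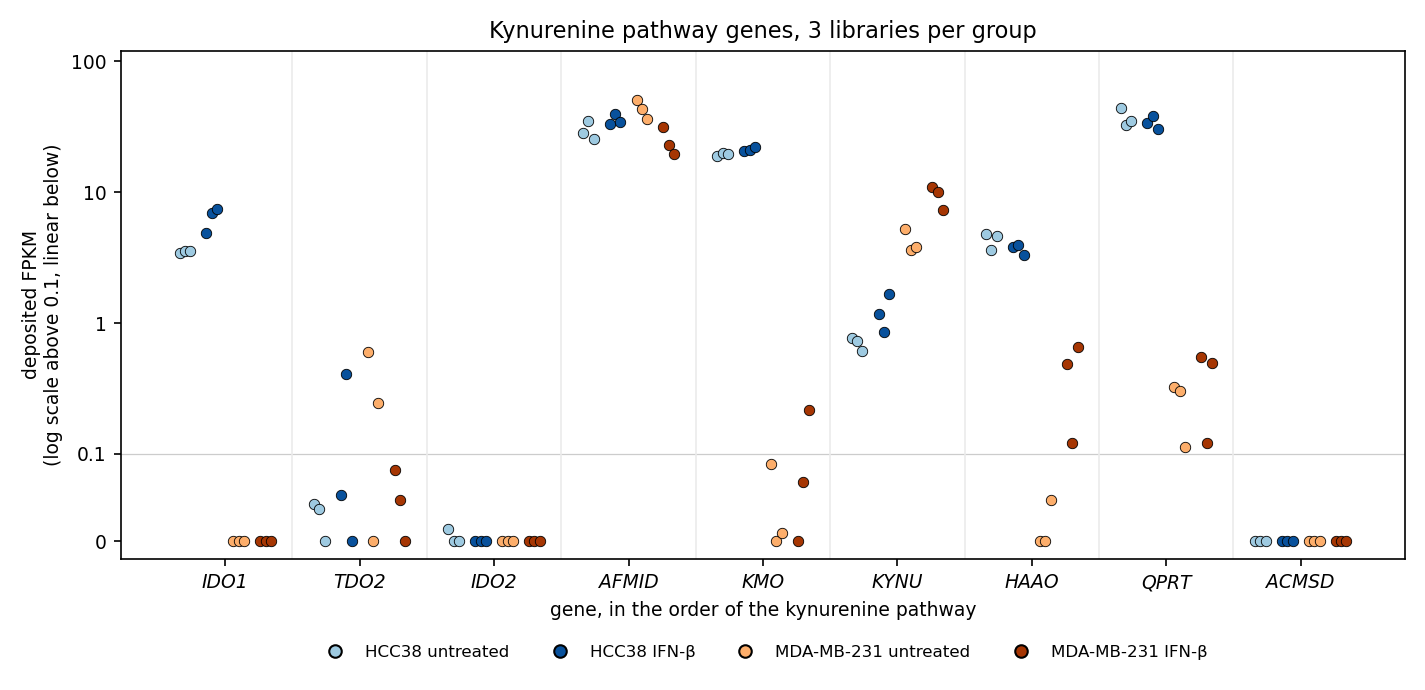
Deposited FPKM (a level per transcript length and sequencing depth) of kynurenine pathway genes in pathway order, 1 point per library and 3 libraries per group, on an axis that is logarithmic above 0.1 and linear below. IDO1 was listed at 0 in all 6 MDA-MB-231 libraries, and KYNU was at 0.610 to 1.67 in HCC38 against 3.61 to 10.9 in MDA-MB-231.

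IDO1 (ENSG00000131203; chromosome 8, 39902275 to 39928790, plus strand, GRCh38) opens the pathway in tumours that express it. Untreated HCC38 libraries held 4.98, 5.52 and 5.63 CPM, and those given interferon-β held 7.49, 9.69 and 11 CPM. Every treated library lay above every untreated one, with means of 5.38 ± 0.346 and 9.39 ± 1.77 CPM (SD, n = 3), and FPKM moved alike from 3.49 ± 0.0777 to 6.42 ± 1.38. IDO1 rose by 0.81 ± 0.19 (SE) on the log2 scale (edgeR, adjusted p = 0.0459). It was the 1 of 5 tested genes called in HCC38, where 3.64% of all genes were called and 2.39% were called higher. The call rested on few libraries: leaving out any 1 of the 3 untreated HCC38 libraries gave adjusted p-values of 0.192, 0.141 and 0.146, and leaving out treated replicate 2 or 3 gave 0.134 and 0.189. The log2 fold change stayed between 0.68 and 0.96 when each of the 12 libraries was left out in turn.

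IDO1 had 0 counts in each of the 6 MDA-MB-231 libraries, with and without interferon-β. With a limit of 3 counts over each group, IDO1 was at least 184-fold lower in MDA-MB-231 than in HCC38 without treatment and at least 327-fold lower in interferon-β (edgeR, adjusted p = 8.67e-09 and 3.04e-09). These limits cover counting error only, and reads without molecular identifiers are not independent molecules. No fold can be given for a response of IDO1 in that line. Of 12 listed regulators of IDO1, 2 were called higher in HCC38, where 2.39% of all genes were. In MDA-MB-231 3 were, where 6.46% of all genes were, and 0 were called lower in either line. IRF1, a known activator of IDO1, did not pass the edgeR test in HCC38 (log2 fold change 0.36, adjusted p = 0.328) or MDA-MB-231 (0.22, adjusted p = 0.477). Its level in MDA-MB-231 was 34.9 CPM untreated and 45.8 treated in set 1, and 21.2 and 30.2 in set 2.

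**Figure D2:**
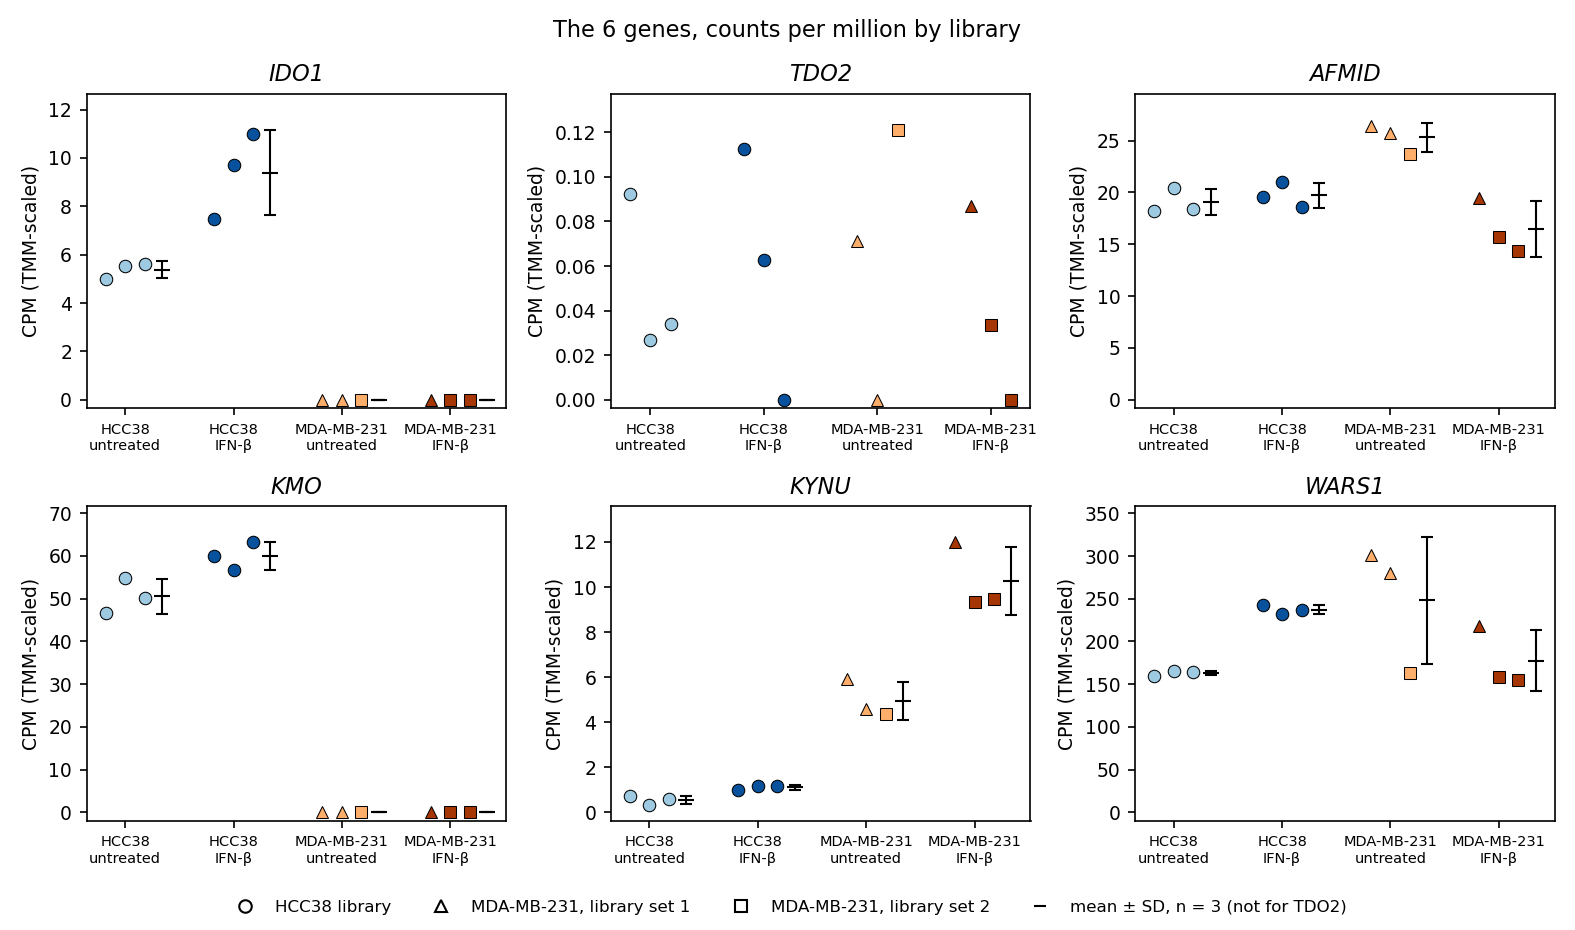
TMM-scaled CPM of the 6 genes in each library, by line and treatment, with the mean and SD of 3 libraries beside the points and the MDA-MB-231 library sets marked by shape; axes are linear and differ between panels. Treated HCC38 libraries lie above untreated ones for IDO1, KYNU, KMO and WARS1, of which only IDO1 passed the test on all 12 libraries. How many of all genes separate in this way, here or elsewhere in the text, was not counted. The WARS1 panel shows the untreated set 2 library of MDA-MB-231 at 163 CPM below the other 2.

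TDO2 (ENSG00000151790; chromosome 4, 155854738 to 155920406, plus strand), the other ring-opening enzyme, was at the limit of detection. Its counts were 3, 1 and 1 in untreated and 3, 2 and 0 in treated HCC38, and 2, 0 and 5 in untreated and 3, 1 and 0 in treated MDA-MB-231. It did not pass the filter and was not tested, and the exact Poisson 95% upper limits of the groups were 0.118, 0.137, 0.140 and 0.0981 CPM in that order. IDO2, a paralogue of IDO1, had 2 counts in total, both in untreated HCC38.

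AFMID (ENSG00000183077; chromosome 17, 78187358 to 78207702, plus strand) fell in MDA-MB-231 on interferon-β. Untreated MDA-MB-231 libraries held 26.4, 25.7 and 23.7 CPM and treated ones 19.5, 15.7 and 14.3 CPM. The groups did not overlap, and FPKM fell from 43.1 ± 7.19 to 24.7 ± 6.26. The log2 fold change was -0.62 ± 0.12 (edgeR, adjusted p = 0.00288). AFMID and KYNU were the 2 of 5 genes called in that line, where 12.5% of all genes were called, 6.46% higher and 6.08% lower. Of the 5, IDO1 with 0 counts there could not be called, and KMO with 0 to 5 counts per library hardly could. Both passed the filter on their HCC38 counts. Within set 1 alone the decrease was -0.42 ± 0.13 (adjusted p = 0.0642), and within set 2 it was -0.66 ± 0.13 (adjusted p = 0.00101).

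In HCC38 AFMID held 18.2, 20.5 and 18.4 CPM untreated and 19.5, 21.0 and 18.6 CPM treated. These values overlapped, with a log2 fold change of 0.05 ± 0.12, a 95% interval of -0.20 to 0.30 and an adjusted p of 0.892. The difference of the 2 responses was -0.67 ± 0.16 (adjusted p = 0.0386), and 3.51% of all genes had a called difference, 1.52% a negative one. It was not called with library totals in place of TMM (-0.58, adjusted p = 0.0662), on log2(FPKM + 1) (-1.07, adjusted p = 0.0855) or within set 1 (-0.47, adjusted p = 0.106). With 1 library left out it was called only without untreated replicate 3 or treated replicate 1 of MDA-MB-231, and lost for each of the other 10 libraries, with values of -0.81 to -0.58 and adjusted p-values up to 0.111 over all 12 cases. Untreated, AFMID was higher in MDA-MB-231 than in HCC38 by 0.41 ± 0.12 (adjusted p = 0.00500), and treated it did not pass the test (-0.26 ± 0.12, adjusted p = 0.0568). The treated comparison was -0.02 within set 1 (adjusted p = 0.895) and -0.40 within set 2 (adjusted p = 0.00145). It was called without untreated replicate 3 of MDA-MB-231 (adjusted p = 0.0496) and without treated replicate 1 (-0.40, adjusted p = 0.00416).

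KMO (ENSG00000117009; chromosome 1, 241532134 to 241595642, plus strand), a mitochondrial outer membrane enzyme known from liver, kidney and myeloid cells, was abundant in HCC38 and at a few reads in MDA-MB-231. HCC38 libraries held 46.7, 54.9 and 50.2 CPM untreated and 59.96, 56.7 and 63.2 CPM treated. The groups did not overlap, but the log2 fold change of 0.24 ± 0.16 did not pass the test (edgeR, adjusted p = 0.504; 95% interval -0.10 to 0.59). Fitted on the 6 HCC38 libraries alone it was 0.25 ± 0.08 (adjusted p = 0.0455). MDA-MB-231 had 4, 0 and 1 counts untreated and 0, 5 and 2 counts treated. The level in HCC38 was 1045-fold that in MDA-MB-231 without treatment (counting interval 447 to 3219) and 891-fold with it (432 to 2217; adjusted p = 2.02e-12 and 1.76e-12). With so few reads in MDA-MB-231 the size of this difference moved with single libraries. The fitted log2 difference without treatment, -9.91 ± 0.79, was -11.53 without untreated replicate 1 and -9.37 without untreated replicate 2. The treated one, -9.72 ± 0.67, became -10.94 when treated replicate 2 was left out and -9.17 when treated replicate 1 was. The span of KMO overlaps that of OPN3 on the other strand, and how strand was set in counting is not given in the sources used here. Overlap of exons was not examined, so how far the pair share reads is not known.

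KYNU (ENSG00000115919; chromosome 2, 142877657 to 143055833, plus strand) followed the opposite pattern between the lines and rose on interferon-β in MDA-MB-231. Untreated MDA-MB-231 libraries held 5.93, 4.59 and 4.36 CPM and treated ones 12, 9.32 and 9.46 CPM. The lowest treated library lay above the highest untreated one, and in each treatment the highest value was the set 1 library labelled replicate 1. KYNU rose by 1.05 ± 0.19 on the log2 scale (edgeR, adjusted p = 0.00217), by 1.20 ± 0.22 within set 1 and by 1.11 ± 0.23 within set 2. It was called in each of the 23 alternative analyses of this response, with adjusted p-values up to 0.0247.

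KYNU in HCC38 rested on 13 to 37 counts per library. Its level was 0.707, 0.350 and 0.576 CPM untreated and 0.974, 1.16 and 1.19 CPM treated. The groups did not overlap, and the log2 fold change was as large as in the other line, 1.04 ± 0.28, but did not pass the test (adjusted p = 0.0545; 95% interval 0.44 to 1.64). It was called when untreated replicate 1 or 3 or treated replicate 1 of MDA-MB-231 was left out (adjusted p = 0.0499, 0.0410 and 0.0401). The difference of the responses was 0.01 ± 0.34, with a 95% interval of -0.71 to 0.74 that is too wide to show equal responses. KYNU was higher in MDA-MB-231 by 3.19 ± 0.25 without treatment and by 3.20 ± 0.22 with it (adjusted p = 1.64e-08 and 5.73e-09).

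**Figure D3:**
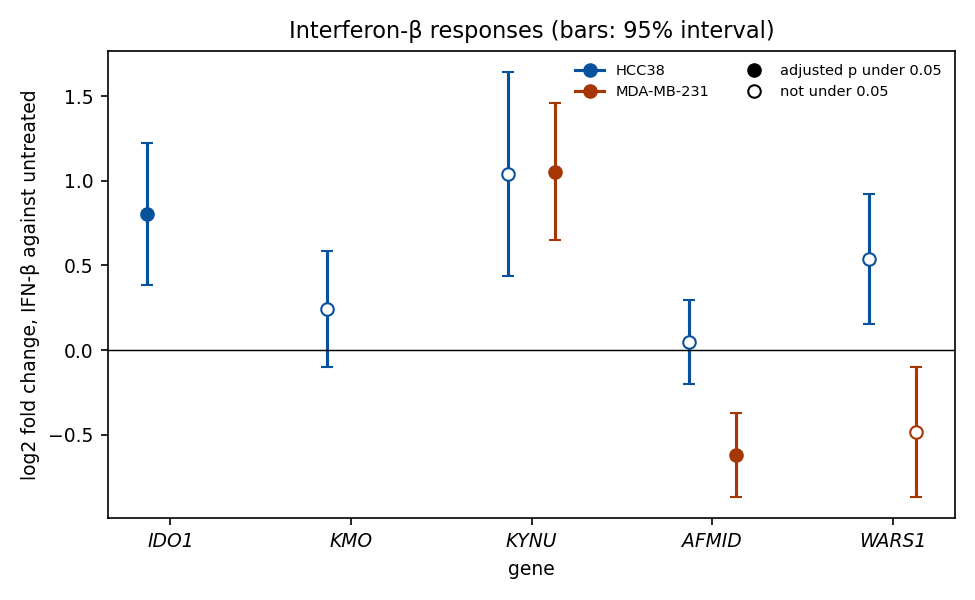
Log2 fold change of interferon-β against untreated with its 95% interval for the 5 tested genes in each line; filled points passed an adjusted p under 0.05, and IDO1 and KMO are left out in MDA-MB-231 for want of counts. KYNU lies near 1 in both lines, and the AFMID and WARS1 values of MDA-MB-231 lie below 0 where those of HCC38 do not.

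WARS1 (ENSG00000140105; chromosome 14, 100333790 to 100376805, minus strand) was the most abundant of the 6 genes per transcript length in every group, with mean FPKM of 110, 137, 157 and 121 in untreated and treated HCC38 and untreated and treated MDA-MB-231. In HCC38 its libraries held 160, 165 and 165 CPM untreated and 242, 232 and 237 CPM treated. The groups were far apart beside their own spread, 163 ± 2.75 against 237 ± 5.06 CPM (SD, n = 3). The log2 fold change was 0.54 ± 0.18, which did not pass the test when all 12 libraries shared 1 estimate of spread (edgeR, adjusted p = 0.131). Fitted on the 6 HCC38 libraries alone it was 0.55 ± 0.06 and was called (adjusted p = 6.68e-06). Left in the joint fit but without untreated replicate 3 of MDA-MB-231, it was called too (adjusted p = 0.00511). FPKM rose less, from 110 ± 2.82 to 137 ± 4.79, also without overlap. The span of WARS1 overlaps WDR25 and 3 unnamed genes on the other strand. Without the strand setting or a comparison of exons, how far it shares reads with them is not known. The same limit holds for TDO2 with ASIC5 and for KYNU with SFXN4P1, each on the other strand. IDO1 overlaps 3 unnamed genes, of which ENSG00000253838 lies on its own strand.

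WARS1 varied more between the libraries of MDA-MB-231. They held 301, 280 and 163 CPM untreated and 219, 158 and 155 CPM treated, so the untreated set 2 library lay among the treated ones. The log2 fold change over all of them was -0.48 ± 0.18 (adjusted p = 0.0954). With a term for the library sets it was -0.23 ± 0.07 (adjusted p = 0.0258), within set 1 -0.41 ± 0.08 (adjusted p = 0.00298) and within set 2 -0.05 ± 0.08 (adjusted p = 0.706). Without untreated replicate 3 it was -0.72 (adjusted p = 0.000633), and without treated replicate 1 it was -0.67 (adjusted p = 0.0165). The deposited FPKM of set 2 were 93.4 untreated and 110 and 99.8 treated, and those of set 1 were 191 and 188 untreated and 154 treated.

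WARS1 differed between the sets without interferon-β, by -0.84 ± 0.08 (set 2 against set 1; adjusted p = 1.99e-06, with 16.1% of all genes called) and in treated libraries by -0.48 ± 0.08 (adjusted p = 0.000435, 13% called). The responses of the 2 sets differed by 0.36 ± 0.11, which did not pass the test (adjusted p = 0.294), and 0.0607% of all genes did. These set comparisons were chosen after seeing the data. KYNU and AFMID did not pass the test between sets in either treatment.

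The WARS1 responses of the 2 lines differed by -1.02 ± 0.25 (MDA-MB-231 minus HCC38; edgeR, adjusted p = 0.0399). The difference was -0.95 with MDA-MB-231 held to set 1, where only 1 library was treated. Held to set 2, where only 1 library was untreated, it was -0.59. It was not called with library totals in place of TMM (-0.94, adjusted p = 0.0623) or on log2(FPKM + 1) (-0.65, adjusted p = 0.430). As for AFMID, the call was lost when any 1 library other than untreated replicate 3 or treated replicate 1 of MDA-MB-231 was left out, with values of -1.26 to -0.86 and adjusted p-values up to 0.109 over all 12 cases. Between the lines, WARS1 was higher in untreated MDA-MB-231 by 0.60 ± 0.18 (adjusted p = 0.00684), a difference of 0.83 against set 1 and of -0.0048 against set 2. In interferon-β it was lower in MDA-MB-231 by -0.42 ± 0.18 (adjusted p = 0.0453), and held to set 1 the value was -0.12 (adjusted p = 0.175). That call was also lost without any 1 of the 6 HCC38 libraries or without treated replicate 2 or 3 of MDA-MB-231 (values -0.44 to -0.34, adjusted p-values up to 0.141).

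WARS1 was next set beside the other synthetases, the enzymes that load each amino acid onto its tRNA. Among 21 genes of cytosolic enzymes it had the highest fold change in HCC38, where the other 20 ran from -0.24 to 0.15 with a median of 0.04. In MDA-MB-231 it was 13th from the top, with the others between -0.90 and 0.03 and a median of -0.46. In the list of 23 cytosolic synthetase and complex genes without WARS1, none was called in HCC38 in edgeR or in DESeq2, while at an unadjusted p under 0.05 edgeR had 0 higher and 1 lower. In MDA-MB-231 15 of 23 fell and none rose, where 6.08% of all genes fell and 6.46% rose, with a median of -0.44 against 0.00 over all genes tested. LARS1 (log2 fold change -0.90 ± 0.11), IARS1 (-0.85 ± 0.11), EPRS1 (-0.78 ± 0.11) and FARSB (-0.67 ± 0.11), which load leucine, isoleucine, glutamate with proline, and phenylalanine, were called in all 23 alternative analyses. Calls over all genes in MDA-MB-231, 2272 in the main fit, ran from 1168 to 3260 when 1 library was left out. The count of 15 was 6 when the MDA-MB-231 libraries were fitted alone, 5 on log2(FPKM + 1), 9 within set 1 and 16 within set 2, and 8 to 17 when 1 library was left out; it was 8 without treated replicate 3.

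**Figure D4:**
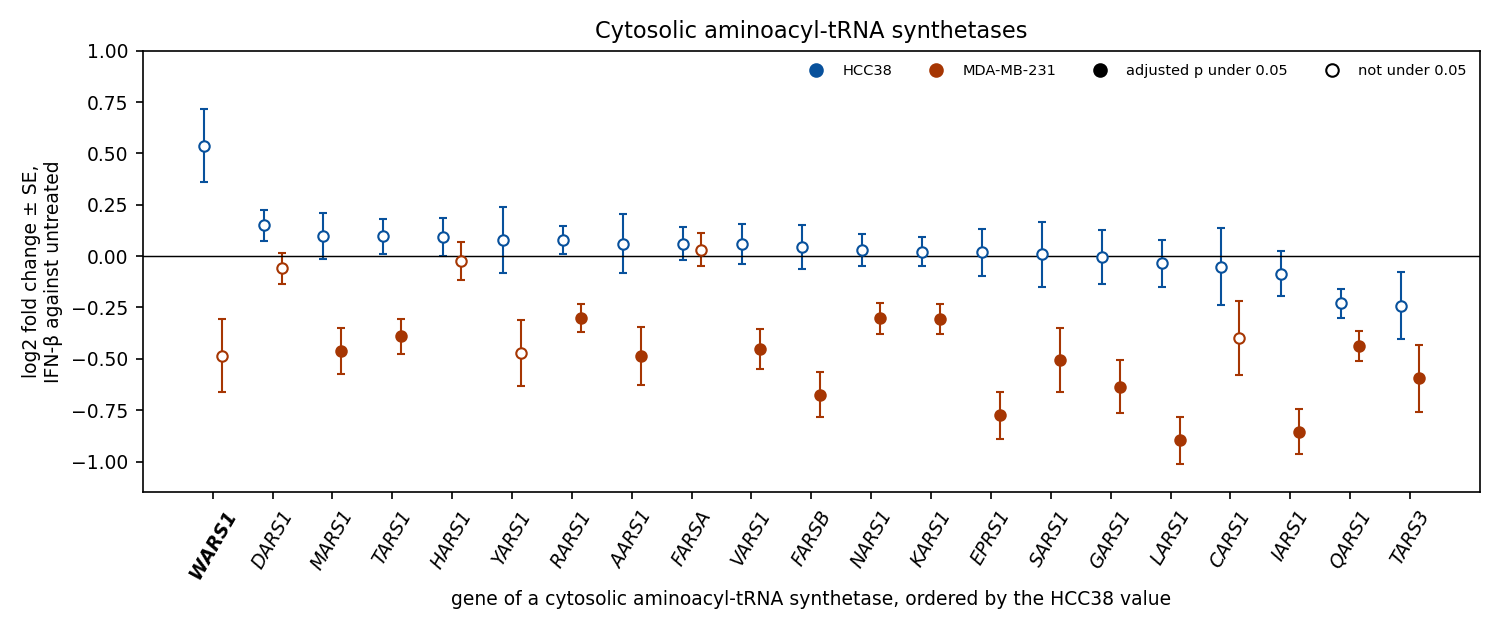
Log2 fold change of interferon-β against untreated, ± SE, for 21 genes of cytosolic aminoacyl-tRNA synthetases in each line, ordered by the HCC38 value; filled points passed an adjusted p under 0.05. WARS1 stands at 0.54 in HCC38 above the other 20, which end at 0.15, while in MDA-MB-231 it lies among them at -0.48.

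WARS2, which loads the same amino acid in mitochondria, passed the test in neither line. Its level was 8.04 ± 2.09 CPM in untreated and 7.34 ± 0.744 in treated HCC38 (log2 fold change -0.13 ± 0.16, edgeR, adjusted p = 0.764). In MDA-MB-231 it was 36.9 ± 0.816 and 31.8 ± 3.39 CPM (-0.22 ± 0.14, adjusted p = 0.371). Of the 16 mitochondrial synthetase genes tested, 0 were called in HCC38 in edgeR or DESeq2, while at an unadjusted p under 0.05 there were 2 higher and 1 lower. In MDA-MB-231 2 rose, 3 fell and 11 did not pass, where 12.5% of all genes were called. AARS2 rose by 0.52 ± 0.12 (edgeR, adjusted p = 0.00887) and was not called within set 1, on the MDA-MB-231 libraries alone or without treated replicate 3. LARS2, at 0.21 ± 0.07 (adjusted p = 0.0481), was called in 3 of 23 alternative analyses and in none that left out a library or held to 1 set. IARS2 fell in all 23 and EARS2 in 19 of them, the latter not within set 1, on the MDA-MB-231 libraries alone or on FPKM.

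Of 13 other genes of the kynurenine pathway and NAD synthesis, 10 were tested. In HCC38 0 were called in edgeR or DESeq2 (at an unadjusted p under 0.05, 0 higher and 1 lower), where 3.64% of all genes were called. In MDA-MB-231 0 rose and 2 fell, where 12.5% of all genes were called, with a median of -0.19 beside 0.00 over all genes. The 2 were GOT2, a mitochondrial aminotransferase (-0.30 ± 0.07, edgeR, adjusted p = 0.0102, called in 19 of 23 alternative analyses, not within set 1 or without treated replicate 3), and NMNAT1, a nuclear NAD synthase (-0.35 ± 0.10, adjusted p = 0.0404, called in 8 of 23 alternative analyses). The late enzymes shared the line pattern of KMO. QPRT held 60.4 ± 5.03 CPM in untreated HCC38 and 0.372 ± 0.177 in untreated MDA-MB-231, a log2 difference of -7.40 ± 0.43 (adjusted p = 4.72e-11). HAAO held 5.35 ± 0.498 CPM in untreated HCC38 and had 2 counts over the 3 untreated MDA-MB-231 libraries (adjusted p = 3.09e-09). The aminotransferases KYAT3 and AADAT, which divert kynurenine to kynurenic acid, did not pass the test between the untreated lines, with log2 differences of 0.09 ± 0.10 and 0.23 ± 0.22 (adjusted p = 0.422 and 0.349). ACMSD, which turns the pathway away from NAD, had 0 counts in all 12 libraries.

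Other users and carriers of tryptophan were called in MDA-MB-231 in 1 of 6 and 3 of 7 tested genes, where 12.5% of all genes were, and in HCC38 in 0 of 6 and 0 of 7, where 3.64% were. The difference of the responses was called for 0 of these 13 genes. IL4I1, a secreted oxidase of aromatic amino acids, was among 6 tested tryptophan-using genes the 1 that rose there, from 0.157 ± 0.123 to 0.791 ± 0.140 CPM (2.39 ± 0.50, edgeR, adjusted p = 0.00356; not called within set 1 or on the MDA-MB-231 libraries alone). In HCC38 IL4I1 held 0.903 ± 0.0778 CPM untreated and 2.17 ± 0.236 treated (1.26 ± 0.34), which did not pass the test (adjusted p = 0.0619). Of 7 tested transporter genes, SLC7A5, the large neutral amino acid carrier that brings tryptophan and kynurenine into cells, rose in MDA-MB-231 from 732 ± 74.6 to 1124 ± 208 CPM (0.62 ± 0.13, adjusted p = 0.00672; not called within set 1, at 0.0547). SLC36A4 (-0.42) and SLC7A11 (-0.45), the second a cystine carrier, fell in that line, and the other 4 did not pass. Neither decrease was called within set 1, on FPKM, on the MDA-MB-231 libraries alone or without treated replicate 3, nor that of SLC7A11 without treated replicate 2. In HCC38 0 of the 7 were called in edgeR, where an unadjusted p under 0.05 gave 0 higher and 1 lower, and DESeq2 called 1 lower.

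AHR, the receptor that kynurenine and related compounds activate, rose in HCC38 from 33.9 ± 2.72 to 48.6 ± 0.946 CPM (0.52 ± 0.12, edgeR, adjusted p = 0.0244). It was the 1 of 6 tested genes of its pathway called there, where 3.64% of all genes were called and 2.39% were called higher. It was called in 14 of 21 alternative analyses, and was lost on FPKM and without untreated replicate 1 or 3 or any 1 treated library of HCC38. In MDA-MB-231 AHR held 67.0 ± 8.43 and 72.2 ± 11.9 CPM and did not pass (0.11 ± 0.12, edgeR, adjusted p = 0.610). There NQO1, a target of the receptor among others, had a log2 fold change of -0.31 ± 0.09 (edgeR, adjusted p = 0.0308). It was the 1 of the 6 genes called in that line, where 12.5% of all genes were called and 6.08% were called lower. NQO1 was called in 13 of 23 alternative analyses, and not within set 1 or set 2, with library totals, on FPKM, on the MDA-MB-231 libraries alone, or without untreated replicate 1 or 2 or treated replicate 2 or 3. Of 12 genes of the amino acid starvation response, which uncharged tRNA is known to trigger, 0 were called in HCC38 in edgeR, where 3.64% of all genes were called. At an unadjusted p under 0.05, 0 were higher and 2 lower there. In MDA-MB-231 0 rose and 2 of the 12 fell, where 12.5% of all genes were called and 6.08% were called lower. They were PSAT1 of serine synthesis (-1.03 ± 0.16, edgeR, adjusted p = 0.000698) and ASNS. ASNS was called in 9 of 23 alternative analyses, and its counts were few beside its FPKM and are uncertain.

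Leukocytes also express IDO1, KMO and KYNU, so 12 leukocyte markers were read in the same libraries. Their summed level was 7.65 to 8.64 CPM in untreated and 6.93 to 8.20 CPM in treated HCC38, and 1.65 to 3.76 and 2.63 to 3.74 CPM in MDA-MB-231. NKG7 of cytotoxic cells had 0 counts in all libraries, CD3E of T cells at most 1 count in a library, and 4 of the 12 were tested. PTPRC, the pan-leukocyte CD45, rose in HCC38 from 16 counts over the untreated libraries to 50 over the treated ones (1.81 ± 0.46, edgeR, adjusted p = 0.0376). It was the 1 of 4 tested markers called there, where 3.64% of all genes were called and 2.39% were called higher. The log2 fold changes of the 4 ran from -0.32 to 1.81, with a median of 0.0075. PTPRC was called in 9 of 20 alternative analyses, none of which left out an HCC38 library. CD14 held 4.99 ± 0.245 and 4.01 ± 0.764 CPM in untreated and treated HCC38. CD68 had few counts beside its FPKM and is uncertain. The libraries were of established tumour lines, and whether any leukocyte was present was not tested. Nor was any part of such cells in the level or response of IDO1. In bulk RNA a change in the number of cells and in RNA per cell cannot be told apart.

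Per transcript length the order of the 6 genes in HCC38 was WARS1, AFMID, KMO, IDO1, KYNU and TDO2, in both treatments and with no overlap of neighbours in FPKM. In MDA-MB-231 it was WARS1, AFMID and KYNU, again without overlap, and then TDO2, KMO and IDO1 at or near 0, where neighbours overlapped. Over the 12 libraries, the genes whose log2 CPM ran most like that of KYNU were IFITM3 (Pearson r = 0.993), TMEM158 (0.992), SLC16A6 (0.991), USP43 and CDKN1A (both 0.989). Those like WARS1 included PDIA6 (0.931), PDIA3 (0.925), KCNN4 (0.915) and HYOU1 (0.911). For IDO1 they were BTBD11, OVOL1, TMEM52B, ANGPTL1 and NCAM1 (each 0.999), which like IDO1 had no count in MDA-MB-231. These are descriptions over libraries that share line, medium and treatment.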

How the data were processed

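RNA-seq was deposited for 12 libraries, and the authors deposited 2 tables for each: raw read counts per gene, whole numbers that were not normalized, and FPKM estimates. Per the submitters' processing notes the tools included Cufflinks 2.2.1, HTSeq 2.0.2 and fastp 0.23.2, on the build GRCh38.p13. The aligner, strand setting and annotation release: not given in the sources used here. The kit preserves strand, per the labels' protocols. Coordinates come from the FPKM tables as deposited, with 1 added to each start.

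Counts were tested in R 4.3.3 by edgeR 4.0.16, with its quasi-likelihood test, beside limma 3.58.1. Genes were kept by filterByExpr (minimum count 10, minimum total 15), libraries were scaled by TMM (factors 0.947 to 1.03), and all 12 were fitted with 1 coefficient per group. P-values were adjusted by Benjamini-Hochberg over 18121 genes, and a gene was called, or said to rise or fall, under 0.05. SE is the Wald error with the moderated dispersion. Levels are TMM-scaled CPM, mean ± SD. The script was tested on simulated data.

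The alternatives were median-of-ratios size factors, library totals, no count filter, DESeq2 1.42.0, limma on log2(FPKM + 1) and on log2(FPKM + 0.1) over genes of mean FPKM at least 0.1, the compared libraries alone, a replicate block, the library sets and leaving out each library. The 6 genes and the gene lists were chosen with earlier results of these data known. From each list up to 6 genes with the smallest adjusted p in either interferon comparison are named, with WARS2 and any called synthetase. The genes most like a member are the 5 with the highest Pearson r of log2 CPM (prior count 2). Set comparisons, and lists under every setting, were added after seeing the data. No 2 libraries agreed within sampling noise. Some items are not reported here.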

Additional observations from a re-analysis of the deposited data

Results flagged for a closer look

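The interferon-β response of WARS1 differed between the lines in a test of the difference itself, by -1.02 ± 0.25 on the log2 scale (MDA-MB-231 minus HCC38; edgeR, adjusted p = 0.0399): 3 of 3 treated HCC38 libraries lay above every untreated one, and in MDA-MB-231 the groups overlapped. The response of AFMID differed likewise, by -0.67 ± 0.16 (adjusted p = 0.0386), with 3 of 3 treated MDA-MB-231 libraries below every untreated one and overlapping groups in HCC38. In both, the lines also differed in medium, which cannot be told apart from the line.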

How the results depend on the processing

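The number of the 6 genes called in HCC38 was 1. It was 3 without the count filter, with DESeq2, on the 6 HCC38 libraries alone and with a term for the library sets, 2 with a replicate block and 0 on log2(FPKM + 0.1), and leaving out 1 library gave 0 to 3. In MDA-MB-231 it was 2, and 2 or 3 under every alternative. IDO1 and KMO had too few counts in that line for a call on its response. For the difference of responses it was 2, but 0 with library totals, on log2(FPKM + 1) and on log2(FPKM + 0.1), and 1 within set 1; leaving out 1 library gave 0 to 2, with 0 in 10 of the 12 cases. Between the lines it was 5 untreated (4 or 5 elsewhere) and 4 treated (3 to 5). Leaving out 1 library also moved the calls over all genes. They ran from 340 to 1042 in HCC38 (659 in the main fit) and from 1168 to 3260 in MDA-MB-231 (2272). For the difference of responses they ran from 294 to 1466 (636). Calls over all genes under the other settings are not given here. Against set 2 alone the untreated WARS1 difference between lines changed sign, to -0.0048. The KYNU difference of responses, 0.01, was -0.0098 with median-of-ratios size factors, -0.020 with DESeq2, -0.00050 with the replicate block, and -0.23 to 0.27 when 1 library was left out; the cause was not tested. Library totals moved the median difference of responses over all genes from 0.02 to 0.11. Replicate numbers did not pair the libraries: deviations of same-numbered libraries correlated at 0.036, -0.120 and 0.024 in HCC38 and at 0.274, -0.258 and 0.249 in MDA-MB-231. With the block, WARS1 was called in HCC38 (adjusted p = 0.0245) and MDA-MB-231 (adjusted p = 0.0248). Few counts limit KYNU in HCC38 and leave TDO2 untested.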
